A study of Mus musculus with 45 samples.

Results

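The genes examined were the 78 mouse protein-coding genes for mitochondrial ribosomal proteins, 49 for the large subunit (Mrpl symbols) and 29 for the small subunit (Mrps symbols), out of 21631 protein-coding genes on the autosomes and X. They were chosen by symbol alone. Of 84 matching symbols, 6 were pseudogenes and were left out. They lie on 17 chromosomes. By the list used here, 45 were classed as having a bacterial counterpart and 33 as specific to mitochondria. Mrps18a and Mrps18b, paralogues of Mrps18c, were put in the second class and Mrps18c in the first.

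The study mapped REV-ERBα, a circadian repressor, on mouse liver chromatin by chromatin immunoprecipitation with sequencing (ChIP-seq). Both groups used here were REV-ERBa3HA/3HA knock-in mice, in which the endogenous protein carries a 3HA tag, and neither received AAV. Anti-HA beads served for both, with 4 liver samples at zeitgeber time 22 (ZT22, hours after lights on) and 4 at ZT10, and the authors deposited 1 pooled peak list per time. No spread between samples can therefore be given, and no test between the times was possible.

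Mitochondrial ribosomes translate the few proteins encoded by mitochondrial DNA, all of them core parts of the respiratory chain or ATP synthase. Their RNAs come from mitochondrial DNA, but every one of their proteins is encoded in the nucleus, made in the cytosol and imported. The small subunit binds the mRNA and decodes it, and the large subunit forms the peptide bond. REV-ERBα recruits the NCOR1 corepressor, and its classical DNA element, the RORE, is an AGGTCA core preceded by an A/T-rich stretch that ends in T.

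At ZT22 the list held 36 peaks, with a median fold of 5.96. At ZT10 it held 27929 peaks, with folds of 4.01 to 153 and a median of 6.81. Fold here is the authors' ratio of the summit to its local background. The summit heights, solved from fold and −log10 p, came out as whole fragments within 0.1 at 91.7% of ZT22 and 99.2% of ZT10 peaks. The ZT22 pool was 0.97 times as deep as the ZT10 pool, provided that 1 control was used for both lists. The weakest listed summits held 82 fragments at ZT22 and 83 at ZT10, and the lowest folds were 4.08 and 4.01. Weaker summits are not in the lists, and whether depth or a limit on the fold set this floor was not tested. Among hepatocyte genes, the ZT10 list held summits inside or within 10 kb at 5 of 5, against 54.5% of all protein-coding genes. The strongest had folds of 21.5 for Cyp2e1, 16.4 for Apoa1, 15.8 for Ttr, 10.4 for Serpina1a and 7.82 for Alb. In that order they lay 6903, 4080, 554, 2957 and 9157 bp from the nearer gene end. Of the 4 with an annotated start, 1 had a summit within 1 kb of it.

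The promoter sequences below belong to the 4 genes whose strongest ZT10 summit lay at the start and had the highest folds, and to Mrpl53, the 1 gene whose promoter held a T directly before the AGGTCA core. The last 2 of these, Mrpl22 and Mrpl53, were chosen after their values were seen. Each run is the 250 bases before the annotated start, in the direction of transcription, from RefSeq on GRCm38.p6. Capitals mark matches on either strand to AGGTCA (nuclear receptor core), TAGGTCA (the core with the T of a RORE), CCGGAAG (ETS factors) and GCGCATG (the core of nuclear respiratory factor 1). The Mrps18b run is chr17:35916441-35916690 on the minus strand and holds the NRF1 core, read as its reverse complement. The Mrps6 run, chr16:92058086-92058335 on the plus strand, and the Mrpl35 run, chr6:71823785-71824034 on the minus strand, hold none of these letters. The Mrpl22 run is chr11:58171414-58171663 and the Mrpl53 run chr6:83108858-83109107, both on the plus strand.
Mrps18b: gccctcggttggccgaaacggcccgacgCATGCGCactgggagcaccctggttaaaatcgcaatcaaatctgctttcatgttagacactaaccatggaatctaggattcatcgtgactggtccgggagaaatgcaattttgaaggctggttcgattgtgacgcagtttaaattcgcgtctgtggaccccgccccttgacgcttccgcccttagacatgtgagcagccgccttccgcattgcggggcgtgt
Mrps6: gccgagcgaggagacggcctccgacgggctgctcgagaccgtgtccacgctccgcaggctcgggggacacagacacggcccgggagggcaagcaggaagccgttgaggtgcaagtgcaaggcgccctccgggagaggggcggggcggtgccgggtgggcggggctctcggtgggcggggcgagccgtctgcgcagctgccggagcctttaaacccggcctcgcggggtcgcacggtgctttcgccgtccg
Mrpl35: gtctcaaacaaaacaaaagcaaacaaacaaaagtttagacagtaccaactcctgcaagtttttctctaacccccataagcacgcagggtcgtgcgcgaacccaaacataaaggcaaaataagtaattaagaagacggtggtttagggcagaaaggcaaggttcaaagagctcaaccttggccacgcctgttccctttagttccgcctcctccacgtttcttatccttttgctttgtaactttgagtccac
Mrpl22: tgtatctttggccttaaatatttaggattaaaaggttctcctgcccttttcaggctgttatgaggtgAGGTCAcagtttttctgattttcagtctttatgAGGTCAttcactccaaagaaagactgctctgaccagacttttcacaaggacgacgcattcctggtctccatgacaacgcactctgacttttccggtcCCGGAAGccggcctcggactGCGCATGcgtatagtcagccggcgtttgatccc
Mrpl53: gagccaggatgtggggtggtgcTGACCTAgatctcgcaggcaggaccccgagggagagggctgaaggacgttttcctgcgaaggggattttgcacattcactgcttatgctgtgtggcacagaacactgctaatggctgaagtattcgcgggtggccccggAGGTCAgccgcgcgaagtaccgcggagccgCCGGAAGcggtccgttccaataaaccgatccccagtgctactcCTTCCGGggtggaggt

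At ZT10, 62 of the 78 genes had a REV-ERBα summit inside the gene or within 10 kb of it, 79.5%, against 54.5% of all protein-coding genes. These summits were mostly low. Taking the strongest summit of each gene, the median fold was 6.74 over the 62 genes, with a range of 4.14 to 21.2, and 7.82 over all genes with a summit, which reached 103. The middle of the distribution, between the quartiles, ran from 5.22 to 7.82 in the ribosomal genes and from 5.61 to 12.1 in all genes. A fold over 10 was reached by 8 of the 78 genes (10.3%), against 19.1% of all protein-coding genes. With only peaks of −log10 q of at least 20 kept, 20 of the 78 genes (25.6%) had a summit, against 6490 of the 21631 genes in all. The share above that of all genes therefore held for weak and strong peaks counted together, and not for the strong peaks alone.

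**Figure D1:**
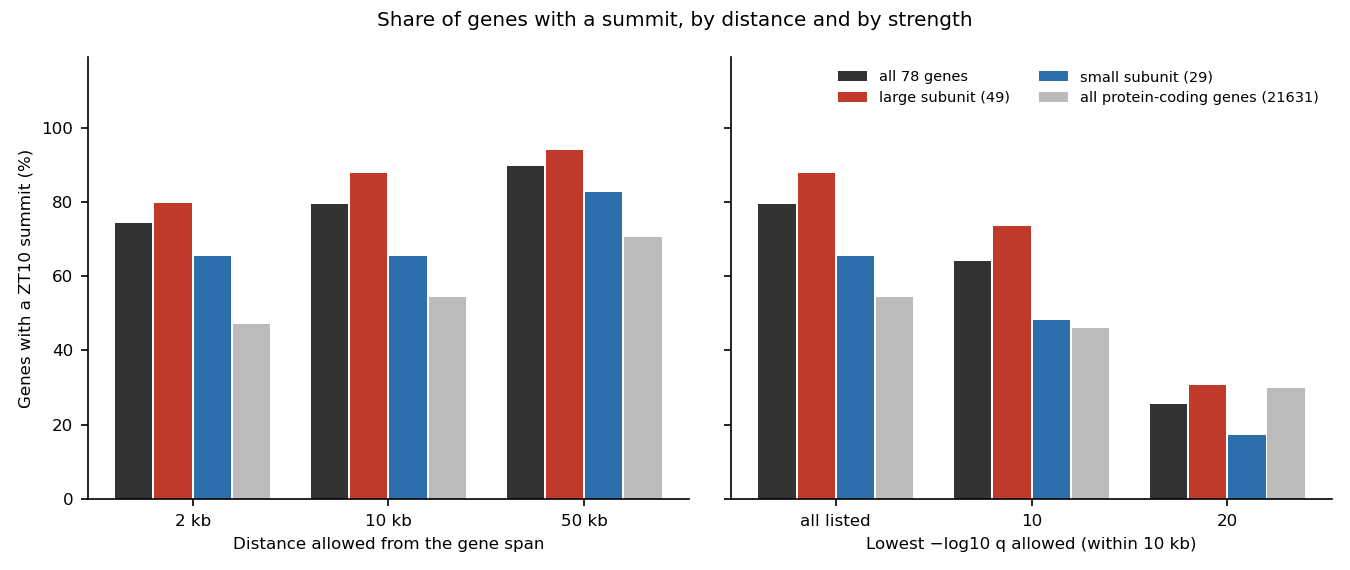
Share of genes (%) with a ZT10 summit, by the distance allowed from the gene (left; 2, 10 or 50 kb) and by the lowest −log10 q allowed (right; all listed peaks, 10 or 20), for all 78 genes, the large subunit, the small subunit and all protein-coding genes. The ribosomal genes stand above all genes at every distance (79.5% against 54.5% at 10 kb) and below them at a −log10 q of at least 20 (25.6% against 6490 of 21631 genes).

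The genes are shorter and more crowded than most, with a median span of 7690.5 bp against 17329 bp for all genes and a median of 2 against 1 other genes within 10 kb. Of all genes with a neighbour within 10 kb, 64.1% had a summit in reach, and of those with spans between the quartiles of the ribosomal genes, 52.5% did. The part of gene density in the count was not tested beyond these shares.

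The large subunit had summits more often than the small subunit. In the large subunit 43 of 49 genes (87.8%) had one, and in the small subunit 19 of 29 (65.5%). The gap of 22.2 percentage points was 14.1 within 2 kb, 11.1 within 50 kb and 12.9 when each summit went to its nearest gene only. The median strongest fold was 6.81 in the large and 6.03 in the small subunit. That difference of 0.78 depended on the assignment and was 1.61 within 2 kb, 3.05 within 50 kb and 1.93 with the nearest gene only. With peaks of −log10 q of at least 10 it was 0.58. The median was higher in the large subunit each time. A fold over 10 was found at 7 large-subunit genes and 1 small-subunit gene. The difference was not tested, since genes are not replicates. Large-subunit genes had a median of 2 other genes within 10 kb and small-subunit genes 1, and the part of this in the gap was not tested. Sites per gene averaged 1.67 in the large subunit (82 sites) and 1.03 in the small subunit (30 sites). Structures of the ribosome place the proteins of Mrps18a and Mrps30 in the large subunit, and the protein of Mrps36 is a part of the 2-oxoglutarate dehydrogenase complex. With these moved or left out, 45 of 51 large-subunit genes and 16 of 26 small-subunit genes had a summit, and the difference in median fold was 0.73. The 3 genes themselves had strongest folds of 5.43 at Mrps18a, 5.66 at Mrps30 and 6.12 at Mrps36.

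As classed here, with Mrps18a and Mrps18b counted as mitochondrion-specific, ancestry divided the genes less than the subunit did. Of the genes with a bacterial counterpart 36 of 45 had a summit, with a median fold of 6.57, and of the mitochondrion-specific genes 26 of 33 (78.8%), with a median of 6.76. Within the large subunit these counts were 25 of 29 with a bacterial counterpart and 18 of 20 without, and within the small subunit 11 of 16 and 8 of 13.

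Along the genes, the summits gathered at the starts. An annotated start was at hand for 69 of the 78 genes, 43 large and 26 small, and for 17274 of all genes. A summit lay within 1 kb of a start at 49 of the 69 genes (71.0%), against 34.5% of all genes, and within 500 bp at 48 of them. By subunit these were 34 of 43 large-subunit genes (79.1%) and 15 of 26 small-subunit genes (57.7%). The start summits lay on both sides, 24 upstream and 25 at or downstream of the start, at a median distance of 149 bp. All of them were low. Their folds ran from 4.14 to 8.60 with a median of 5.71, while the start summits of all genes had a median of 6.21 and reached 89.8. Of the start summits of all genes, 22.02% had a fold above the highest ribosomal one and 15.1% a fold over 10.

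**Figure D2:**
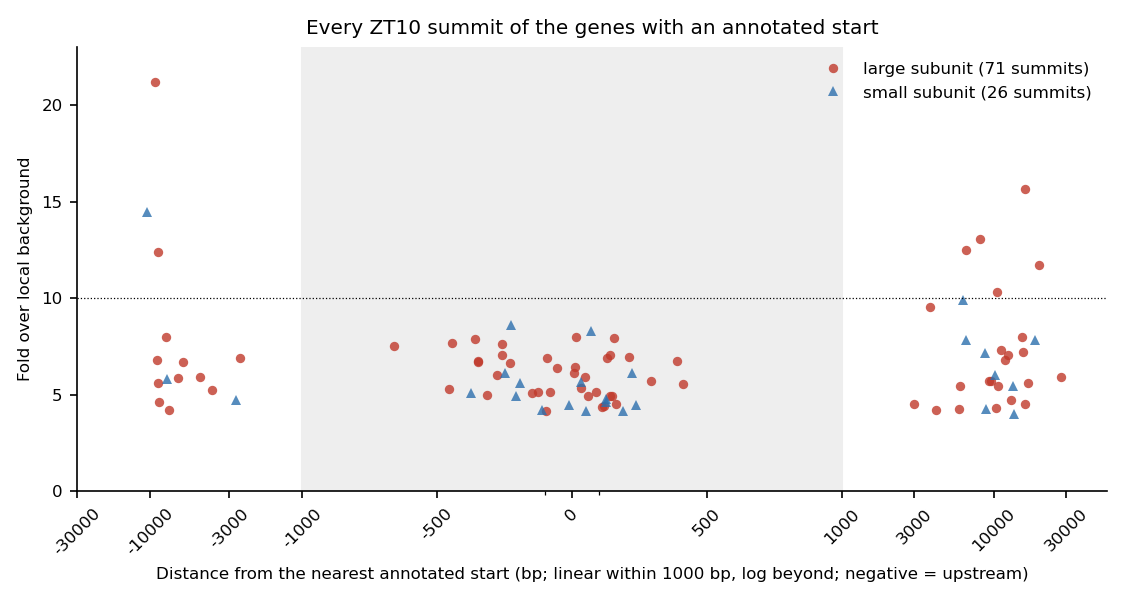
Fold over local background of the 97 ZT10 summits of genes with an annotated start, against the distance in bp from the nearest start (linear within 1000 bp, logarithmic beyond; negative is upstream), for the large (circles) and small (triangles) subunit. The 51 summits in the grey band, within 1 kb of a start, stay at or below a fold of 8.60, and every summit above the dotted line at 10 lies outside it.

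Strongest among the start summits was that of Mrps18b, one of 3 paralogues of bacterial S18, with a fold of 8.60 and 183 fragments (95% Poisson interval 157 to 212) at 224 bp upstream. These intervals cover counting error only. Mrps6, the counterpart of bacterial S6, had 8.28 and 176 fragments (151 to 204) at 72 bp downstream. Mrpl35 had 8.003 and 170 fragments (145 to 198) at 14 bp downstream, and a second summit of the same fold 7774 bp upstream. Mrpl22 had 7.96 and 169 fragments (144 to 196) at 156 bp downstream. The intervals of these 4 genes overlap, so their order is not larger than counting error. The Mrps18b summit also lay 152 bp from an end of Ppp1r10 and the Mrps6 summit 86 bp from an end of Slc5a3, so neither belongs to the ribosomal gene alone by distance.

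At the other end, the weakest strongest summit was shared. Mrpl46 and Mrps11 are divided by 42 bp between their divergent starts on chromosome 7, and 1 summit of fold 4.14 with 86 fragments (68.8 to 106) lay 94 bp upstream of the Mrpl46 start and 52 bp downstream of the Mrps11 start. It was the only peak in reach of more than 1 of the genes, so 112 gene-to-site pairs came from 111 peaks. The next weakest of the large subunit were Mrpl53 with 4.28 and Mrpl28 with 4.37, and of the small subunit Mrps18c with 4.24 and Mrps24 with 4.47. The list ends near these values, with the lowest ZT10 fold at 4.01.

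The strong summits lay elsewhere. For the 54 genes with both a start and a summit in reach, the strongest summit was at the start at 32 (59.3%, against 39.0% of all genes). Their median fold was 5.87, and 0 of the 32 exceeded 10, against 18.6% of all genes whose strongest summit was at the start. At the other 22 genes the strongest summit was farther away, with a median fold of 7.13 and 6 over 10 (27.3%), where 44.6% of all such genes exceeded 10. A start summit was present as well at 17 of these 22 genes, and only at Mrpl36 did the far summit equal it in fold. Measured to the nearer end of the gene, the strongest summit lay within 1 kb at 39 of 62 genes (62.9%), against 37.3% of all genes, at a median of 309 bp against 2866 bp. By subunit this was 27 of 43 large-subunit and 12 of 19 small-subunit genes, with medians of 360 and 224 bp. It lay inside the gene at 22 of the 62 (35.5%), against 50.4% of all genes. Of genes with a summit and a span between the quartiles of the ribosomal genes, 34.9% had the strongest one inside. In 44.9% of them it lay within 1 kb of an end, and the median distance was 1551 bp. The part of gene length in these contrasts was not tested.

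**Figure D3:**
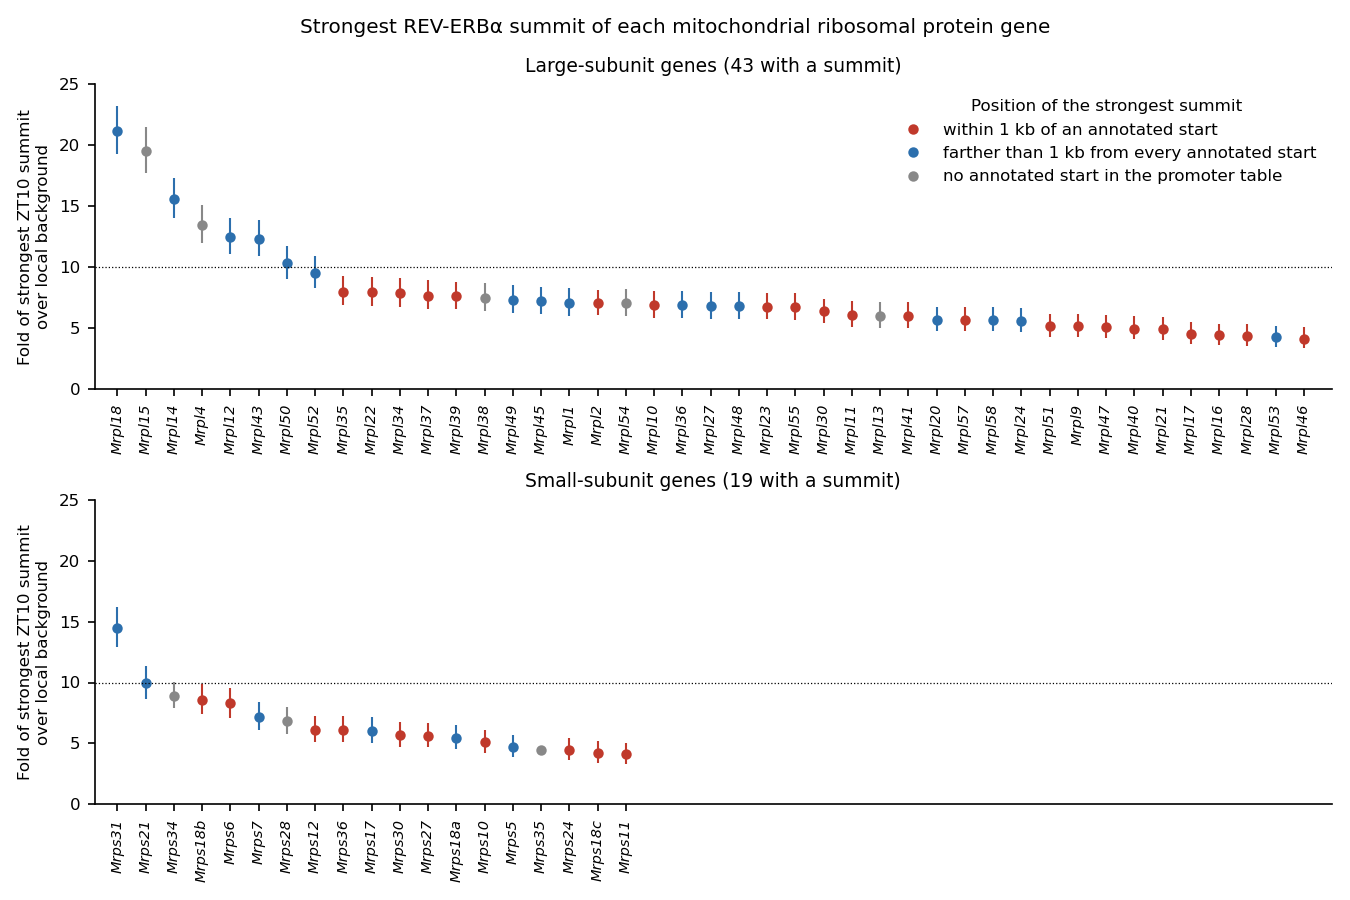
Fold over local background of the strongest ZT10 summit of each gene with one, ranked within the large subunit (top, 43 genes) and the small subunit (bottom, 19 genes). Bars are 95% Poisson intervals of the fragment count, missing where no whole count could be solved (Mrps35), and colours give the summit's position. No summit within 1 kb of a start (red) reaches the dotted line at 10, and the highest is Mrps18b at 8.60.

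The highest fold of all belonged to Mrpl18, whose protein is the counterpart of bacterial L18. The summit had a fold of 21.2 and 457 fragments (416 to 501) in the peak chr17:12924131-12928313. It lay 7572 bp beyond the gene and 292 bp from an end of Tcp1, which encodes a subunit of the cytosolic chaperonin and starts 238 bp from Mrpl18 in the opposite direction. The Mrpl18 start itself had a summit of 6.67 at position -230 from it. Mrpl15 followed with 19.6 and 422 fragments (383 to 464) in chr1:4767813-4770461, 4002 bp outside the gene, with a weaker summit of 8.78 inside it, 394 bp from its end. No other gene end was within 30 kb of the strong Mrpl15 summit; the nearest, of Lypla1, was 38627 bp away. The intervals of Mrpl18 and Mrpl15 overlap, and both lie above that of Mrpl14.

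Mrpl14, the counterpart of bacterial L14, carried 4 summits, of 15.6, 13.1, 11.7 and 7.54. The strongest held 336 fragments (301 to 374) in chr17:45699092-45703914, 3850 bp outside the gene, the next lay inside it, and only the weakest, 660 bp upstream, was at a start. Mrps31 had the one fold over 10 of the small subunit, 14.5 with 311 fragments (277 to 348). It lay 9554 bp from the gene, the farthest of the 8, and 2274 bp from an end of Slc25a15, the ornithine carrier of the urea cycle. The Mrps31 start had a summit of 4.14. Mrpl4 had 13.5 with 290 fragments (258 to 325), inside the gene and 1653 bp from its end.

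Mrpl12, whose protein also binds the mitochondrial RNA polymerase, had 12.5 with 268 fragments (237 to 302), 2479 bp outside the gene and 604 bp from an end of Slc25a10, the mitochondrial dicarboxylate carrier. Its own start had a summit of 7.04. Mrpl43 had 12.4 with 265 fragments (234 to 299), 8837 bp away and 103 bp from an end of Lzts2, and 6.95 at its own start, which lies 116 bp from that of Twnk, the mitochondrial DNA helicase. Mrpl50 had 10.3 with 221 fragments (193 to 252), 2025 bp outside the gene and 2657 bp from an end of Baat, the enzyme that conjugates bile acids, and 5.94 at its start. The intervals of Mrpl12, Mrpl43 and Mrpl4 overlap. Over these 8 genes, the nearest protein-coding gene to the strongest summit was the ribosomal gene at 4 and another gene at 4, and over all 62 it was the ribosomal gene at 31 and another at 31.

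Just below a fold of 10 stood Mrps21 with 9.93, inside the gene, and Mrpl52 with 9.52, 905 bp from an end of Mmp14. Mrps34 followed with 8.91, 8422 bp outside the gene and 348 bp from an end of Nubp2, and had 4.77 inside the gene. The stronger Mrps34 summit had a local background of 6 against the base of 4.14. Its 260 fragments (229 to 294) were thus more than those of Mrps21 (212, 184 to 243) at a lower fold, with overlapping intervals. Mrps7 had 7.18, 4800 bp outside the gene and 133 bp from an end of Mif4gd, and 4.81 at its own start. Mrps28 had 6.81, and Mrps12, the counterpart of the decoding-centre protein S12 of bacteria, had 6.12. Mrps12 shares its promoter region with Sars2, the mitochondrial seryl-tRNA synthetase, and its summit lay 110 bp from the Sars2 end. Other strongest summits more than 5 kb from both ends of their genes belonged to Mrpl49 with 7.31, Mrpl1 with 7.08, Mrpl48 with 6.81, Mrps17 with 6.03, Mrpl24 with 5.61 and Mrpl53 with 4.28. Only that of Mrpl1, inside the gene, had the ribosomal gene as its nearest; the Mrpl49 summit lay 38 bp from an end of Syvn1 and the Mrpl53 summit 492 bp from an end of Mogs.

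There were 0 summits in reach at 16 genes, 1 at 29, 2 at 22 and 3 or more at 11, a mean of 1.44 per gene against 1.32 for all genes. A count of 3 or more was found at 14.1% of the ribosomal genes and 17.3% of all genes. Genes with spans between the quartiles of the ribosomal genes had a mean of 0.931, and 10.1% of them had 3 or more. Mrpl48 had most, 7 summits of 4.94 to 6.81, of which 3 lay within 1 kb of a start. Mrpl58, whose protein is a peptidyl-tRNA hydrolase built into the large subunit, had 4 of 4.51 to 5.71. The many sites of Mrpl48 and the 4 of Mrpl14 therefore differed in strength, with every Mrpl48 summit below every Mrpl14 summit.

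No ZT10 summit lay in reach of 16 genes, 6 of the large and 10 of the small subunit. In the large subunit these were Mrpl3, Mrpl19, Mrpl32, Mrpl33, Mrpl42 and Mrpl44, and in the small subunit Mrps2, Mrps9, Mrps14, Mrps15, Mrps16, Mrps22, Mrps23, Mrps25, Mrps26 and Mrps33. Mrps14 missed the limit by least, with the nearest summit 11783 bp from the gene, followed by Mrpl42 with 13079 bp and Mrpl44 with 14459 bp. Just inside the limit, by the nearest summit, was Mrpl24 at 6770 bp. For 8 of the 16 the nearest summit was within 50 kb, and the one nearest Mrps15, 35553 bp away, had a fold of 25.5. The most isolated were Mrpl32 at 546335 bp and Mrpl3 at 417860 bp. Mrpl32 lacked a summit although its start faces that of the proteasome gene Psma2 across 205 bp.

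Divergent neighbours were frequent. A start of another gene faced the ribosomal gene's own within 1 kb at 24 of 69 genes (34.8%), against 8.59% of all genes, with a median gap of 136 bp. By subunit these were 17 of 43 large-subunit genes (39.5%) and 7 of 26 small-subunit genes (26.9%). Such a partner was also found at 19 of 71 oxidative phosphorylation subunit genes (26.8%) and 8 of 60 cytosolic ribosomal protein genes (13.3%). Partners with mitochondrial functions included Twnk, Sars2, Ndufb5 (a complex I subunit, facing Mrpl47) and Ptcd2 (facing Mrps27). Of the 24 genes with such a partner 22 had a start summit (91.7%), and of the 45 without 27 did (60.0%). Over all genes the shares were 74.9% with a partner and 30.8% without. The summit fell between both starts at 8 of the 24. A summit there cannot be assigned to one of the pair from its position.

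The promoters, taken from 250 bases before to 50 after the start, were also rich in CpG. The median was 21 against 14 over all promoters, with a median GC content of 58.3% against 56.3%. Among promoters with at least 21 CpG, 30 of 37 ribosomal genes (81.1%) and 57.5% of 5887 genes in all had a start summit. Below that, 19 of 32 ribosomal genes (59.4%) and 22.7% of all genes had one. CpG content and start summits thus moved together over all genes, and its part in the count was not tested.

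Motifs of ETS factors, YY1 and NRF1 stood in a larger share of the ribosomal promoters than of all promoters, and the nuclear receptor core in a similar share. The windows searched ran from 250 bases before to 50 after the start, on both strands. CCGGAAG, a site of ETS factors such as GABPA, stood in 25 of 69 promoters (36.2%), against 12.05% of all promoters. AAGATGG, the core of YY1, stood in 13 (18.8%, against 6.42%) and GCGCATG, the core of NRF1, in 8 (11.6%, against 4.94%). The AGGTCA core stood in 11 (15.9%, against 14.4%) and TAGGTCA, which contains it, in 1, Mrpl53 (1.45%, against 2.39%). The E-box CACGTG was found in 5 (7.25%, against 7.99%), and the D-box TTATGTAA in 0 (against 0.920%).

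**Figure D4:**
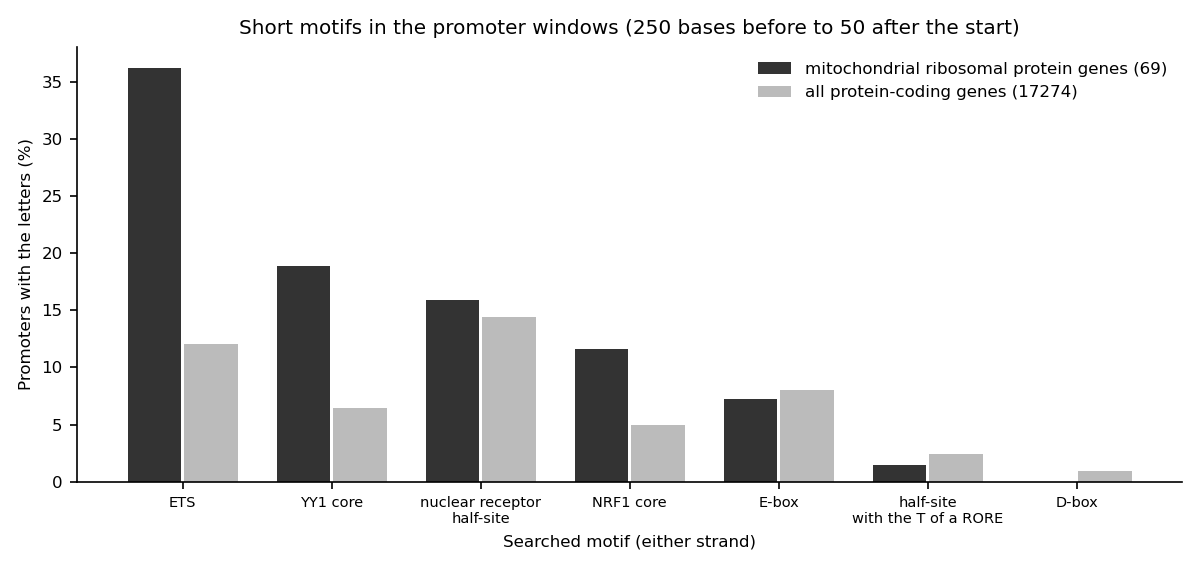
Share of promoter windows (%) that hold each searched motif on either strand, for the 69 ribosomal genes with an annotated start and all 17274 such genes. The ETS site (36.2% against 12.05%), the YY1 core and the NRF1 core were more frequent in the ribosomal promoters, and the nuclear receptor core was at 15.9% against 14.4%.

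The AGGTCA core did not follow the summits. It stood in 8 of the 49 promoters with a start summit (16.3%) and in 3 of the 20 without, and TAGGTCA in 0 of 49 and 1 of 20. The Mrpl53 promoter printed above, the one with TAGGTCA, had its only summits outside 1 kb, the nearest at 5906 bp from the start. Over all promoters the AGGTCA core stood in 12.5% with a start summit and 15.4% without. CCGGAAG stood in 15 of 49 ribosomal promoters with a start summit (30.6%) and in 10 of 20 without, the opposite order to that over all promoters (20.5% and 7.61%), a difference that was not tested. These are counts of letters in a fixed window, and summits up to 660 bp from the start can lie outside it.

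Other sets of housekeeping genes had similar values. Cytosolic ribosomal protein genes had a summit in reach at 70 of 80 (87.5%), with a median strongest fold of 6.01, and a start summit at 46 of 60 (76.7%). Subunits of oxidative phosphorylation had 75 of 88 (85.2%), a median of 6.07 and start summits at 55 of 71 (77.5%). The mitochondrial ribosomal genes, at 79.5%, 6.74 and 71.0%, stood below both sets in the 2 shares and above both in the fold.

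Genes that act with the mitochondrial ribosome had summits as well, where 54.5% of all protein-coding genes had one in reach. Other proteins of the ribosome without an Mrp symbol had summits at 5 of 5 (median 7.41), with 8.69 at Dap3, a GTP-binding protein of the small subunit. Mitochondrial translation factors had them at 11 of 11 (median 5.11), with 12.01 at the initiation factor gene Mtif3 and 4.56 at Tufm, the elongation factor. Aminoacyl-tRNA synthetases had them at 13 of 17 (76.5%, median 6.396), with a median span of 32933 bp against 17329 bp for all genes. Fars2 led with 47.8, deep inside a long gene, and Cars2 had 32.3. Hars2, Lars2, Pars2 and Tars2 lacked a summit. Assembly factors had them at 13 of 20 (65.0%, median 6.03), where 64.1% of all genes with a neighbour within 10 kb had one. Malsu1, which keeps the subunits apart during assembly, led them with 14.8.

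Regulators of mitochondrial transcription and biogenesis had summits at 12 of 14 genes (85.7%, against 54.5% of all genes), with a median of 8.66. Their median span was 22729 bp against 17329 bp for all genes. The coactivator genes Ppargc1b and Ppargc1a had 25.1 and 17.01, inside the genes and 16973 and 247443 bp from their nearer ends. Tfb2m, a mitochondrial transcription factor, had 10.8 at 181 bp from its start. Gabpa, whose protein binds the ETS site, had 8.31, and Tfam 6.99. Polrmt, the mitochondrial RNA polymerase, and Slirp had none in reach.

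At ZT22, 0 of the 78 genes had a summit within 10 kb, where 15 of all protein-coding genes (0.0693%) did. Within 50 kb it was again 0, against 34 of all genes. The nearest ZT22 summits lay 548141 bp from Mrpl20, 681179 bp from Mrps16 and 870455 bp from Mrps23. The ZT22 list as a whole held 36 peaks against 27929 at ZT10, so few genes of any kind had one at ZT22. How far the ZT10 summits depend on the tag was not tested, since the anti-HA library of untagged liver was not analysed here.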

How the data were processed

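ChIP-seq libraries of 8 liver samples, 4 at ZT22 and 4 at ZT10, had been pooled by the authors into 1 peak list per time, per the labels. Tools credited in the submitters' processing notes, without role or order, are MACS2 2.1.2, deepTools 3.3.0, SAMtools 1.9, Picard 2.18.12, BWA 0.7.17, cutadapt 2.3 and bcl2fastq 2.17, with build mm10. Peak-calling settings and the control library are not given in the sources used here. Every deposited list gives per peak a fold (the ratio of summit to local background, the authors' own value), a −log10 p and a −log10 q. A deposited score column and the other 37 samples were not used.

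Gene spans were those of RefSeq on GRCm38.p6, with the coordinates of mm10, and starts and promoters from a RefSeq promoter table in which 69 of the 78 genes matched. Those without an entry are Mrpl4, Mrpl13, Mrpl15, Mrpl19, Mrpl38, Mrpl54, Mrps28, Mrps34 and Mrps35. A gene was given every summit inside its span or within 10 kb, and a summit within 1 kb of an annotated start was called a start summit. Where a gene had more than 1 summit there, the one nearest the start was used. Fragments per summit were solved from fold and −log10 p (pseudocount 1, lowest background 4.14), were whole within 0.1, and have exact 95% Poisson intervals. This calculation was tested on simulated data. Counts and medians stand beside those of all genes, and no test was made, since each time is 1 pooled list and genes are not replicates.

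Genes named are the 8 strongest and 3 weakest of each subunit, those with no summit, those with most sites, with a strongest summit over 5 kb from both ends or shared, and Mrps18a, Mrps30 and Mrps36. Other genes named, among them Mrpl22, Mrpl47 and Mrps27, were chosen after their values were seen. The genes and lists were chosen with earlier results of these data known. Alternatives were the distance, the q limit, nearest-gene assignment and the subunit definition. Python 3.11.15 was used with numpy 2.4.6, pandas 2.3.3 and scipy 1.17.1.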

Additional observations from a re-analysis of the deposited data

How the results depend on the processing

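The count of 62 genes with a ZT10 summit was 58 within 2 kb, 70 within 50 kb, 50 with q limited to a −log10 of 10 or more and 44 when each summit went to its nearest gene only, in each case a larger share than that of all genes. With that limit at 20, the count was 20, with a median strongest fold of 9.22, and the share fell below that of all genes. Within 50 kb the median strongest fold was 7.22, the sites per gene 3.21, and the median fold of the large subunit exceeded that of the small by 3.05, against 0.78 as reported. That excess was 1.61 within 2 kb, 1.93 with the nearest gene only, 0.58 with −log10 q of at least 10 and 0.73 with the subunits by structure. Sites per gene were 0.962 within 2 kb against 1.44 as reported. The large subunit's share with a summit exceeded the small subunit's by 22.2 percentage points, and by 11.1 to 26.7 under the alternatives. With limits chosen after seeing the data, a start summit was found at 48 genes within 500 bp and 49 within 2 kb. No paired analysis was possible because each time is 1 pooled list, and leaving out a sample was not possible for the same reason. A gene with no listed summit may have one weaker than those listed, where the lowest ZT10 fold was 4.01 and the fewest fragments 83. At a local background above the lowest, 4.14, the same fragments give a lower fold, so unlisted summits there may hold more than 83.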
